A study of Mus musculus with 8 samples.

Results

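Neural crest identity genes are the transcription factors and receptors by which crest cells are recognised. Here they are 10 genes, Sox10, Foxd3, Tfap2a, Tfap2b, Pax3, Zic1, Ets1, Sox9, Erbb3 and Ngfr. They were chosen by name and not by any measured value, though earlier results of these data were known. Every probe on the array for one of these genes was used, also under the names Tcfap2a and Tcfap2b that the array gives Tfap2a and Tfap2b. This gave 14 probes for the 10 genes, out of 55681 probes for 36518 genes. All 10 genes had at least 1 probe, and 8 of them had a probe bright enough to be tested.

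The samples were mouse embryonic outflow tracts, the vessel through which blood leaves the forming heart, microdissected at E10.5. One group was Raldh2-/- and the other was wild type at that locus. Raldh2, now named Aldh1a2, is the main enzyme that makes retinoic acid in the embryo. Both groups shared a rescue: the dams ate food with 0.1 mg/g all-trans-retinoic acid from E7.5 to E8.5, so the comparison is between rescued mutants and rescued wild type embryos, and no unsupplemented embryo was analysed here. Each sample pooled 4 outflow tracts, with knockout pools numbered 1, 2, 3 and 7 and wild type pools numbered 1, 2, 5 and 7. The loss of Raldh2 is not limited to a cell type, and the food reached the whole embryo. The labels do not say which pools came from separate litters, so the p-values measure the spread between these 8 pools, each on 1 array.

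The neural crest forms at the border of the neural plate, where Pax3, Zic1 and the AP-2 factors Tfap2a and Tfap2b act early. Foxd3, Sox9, Sox10 and Ets1 then mark cells that are leaving the neural tube, and the receptors Erbb3 and Ngfr are carried by migrating crest and its glial derivatives. Crest cells enter the outflow tract from the pharyngeal arches and take part in dividing it into aorta and pulmonary trunk. Most of them become mesenchyme and smooth muscle and switch the early genes off, while those that follow nerves keep Sox10 and Erbb3. Several of these genes also have other homes, Tfap2a in surface ectoderm, Pax3 in limb and tongue muscle precursors, Ets1 in endothelium and Sox9 in cushion mesenchyme.

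The sequences of the probes show what each value counts. The coordinates below are those of the array's design on mm9, and no mm9 gene annotation was used here to place them in exons or untranslated regions. The following 4 probes are printed whole because they read coding sequence. The Ets1 probe lies in the part that encodes the DNA-binding ETS domain, the Zic1 probe in the part that encodes the zinc fingers, and capitals mark the stop codon with which the Erbb3 probe ends.
Ets1 A_52_P232830, chr9:32561826-32561885, plus strand: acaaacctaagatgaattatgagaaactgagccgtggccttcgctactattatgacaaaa
Zic1 A_55_P2009774, chr9:91257301-91257360, minus strand: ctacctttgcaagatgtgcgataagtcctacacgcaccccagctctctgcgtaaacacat
Erbb3 A_55_P2119897, chr10:128006424-128006483, minus strand: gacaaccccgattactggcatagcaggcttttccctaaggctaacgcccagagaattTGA
Tfap2a A_55_P2199463, chr13:40829040-40829099, minus strand: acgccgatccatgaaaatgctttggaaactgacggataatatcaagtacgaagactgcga

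For 4 further probes the last 30 of their 60 bases are given, because the pool-to-pool results below turn on them. Capitals mark AATAAA, the letters of the usual polyadenylation signal, which 3 of the 14 member probes hold, those of Sox10, Tfap2a and Pax3 shown here.
Sox10 A_55_P2094729, probe at chr15:78985518-78985577, minus strand: tccagcgataccttAATAAAgtacgtagct
Tfap2a A_55_P1964812, probe at chr13:40811044-40811103, minus strand: ttgcccagataAATAAAtatttgatacgct
Pax3 A_55_P2033705, probe at chr1:78099294-78099353, minus strand: gaatcttctcagaaacaaaacAATAAAaaa
Ngfr A_52_P236448, probe at chr11:95430211-95430270, minus strand: ttcatgttccctgacacttcccctttgcat

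Values below are log2 processed signals, with the log2 of the 75th percentile of the same array taken away, so 0 means a signal at that percentile. Levels of single genes are set against each other only within a probe. The summed levels of lists add the linear signals of different probes, so the genes said to make up most of a sum are those with the brightest probes. A probe is called well above background by the scanner software's own test. One array, that of wild type pool 1, was unlike the other 7: its median processed signal was 2023 against 40.0 to 83.0, and 87.5% of the 15181 probes that were dim on all the others were called well above background on it. It moved most members away from the other wild type pools, upward for dim probes and downward for bright ones, so differences are given with 8 arrays and with the 7 arrays that remain without it. All knockout arrays lay in the first row of the slide and all wild type arrays in the second, and the effects of row and genotype cannot be told apart. Aldh1a2, as the check of the labels, stood at 2.02, 2.01, 1.87 and 0.059 in the knockout pools and at 1.92, 3.21, 2.98 and 3.65 in the wild type pools. Its knockout minus wild type difference was -1.45 ± 0.55 (SE) on 8 arrays, and on 7 arrays, where the groups did not overlap, -1.79 ± 0.50. Where its probe lies relative to the deleted part was not tested.

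None of the 8 crest identity genes that could be tested differed between rescued knockout and rescued wild type pools beyond the spread between pools, while Foxd3 and Tfap2b were too dim in most pools to be tested. With limma across 24388 genes and Benjamini-Hochberg adjustment, 0 of the 8 members tested passed an adjusted p of 0.05, and 0 passed an unadjusted p of 0.05. Over all genes 0% passed the adjusted threshold and 1.78% had an unadjusted p below 0.05. On 7 arrays 0 of 8 members again passed either threshold, against 0% and 10.6% of 23762 genes. For 0 of 8 members did all knockout pools lie on one side of all wild type pools, in either setting, against 5.49% of genes on 8 arrays and 11.4% on 7. The median difference of the 8 members was 0.12 on 8 arrays, where that of all genes was 0.13, and -0.002 on 7 arrays, where that of all genes was 0.053. In RNA from whole pools, fewer cells of a type and less RNA per cell cannot be told apart.

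**Figure D1:**
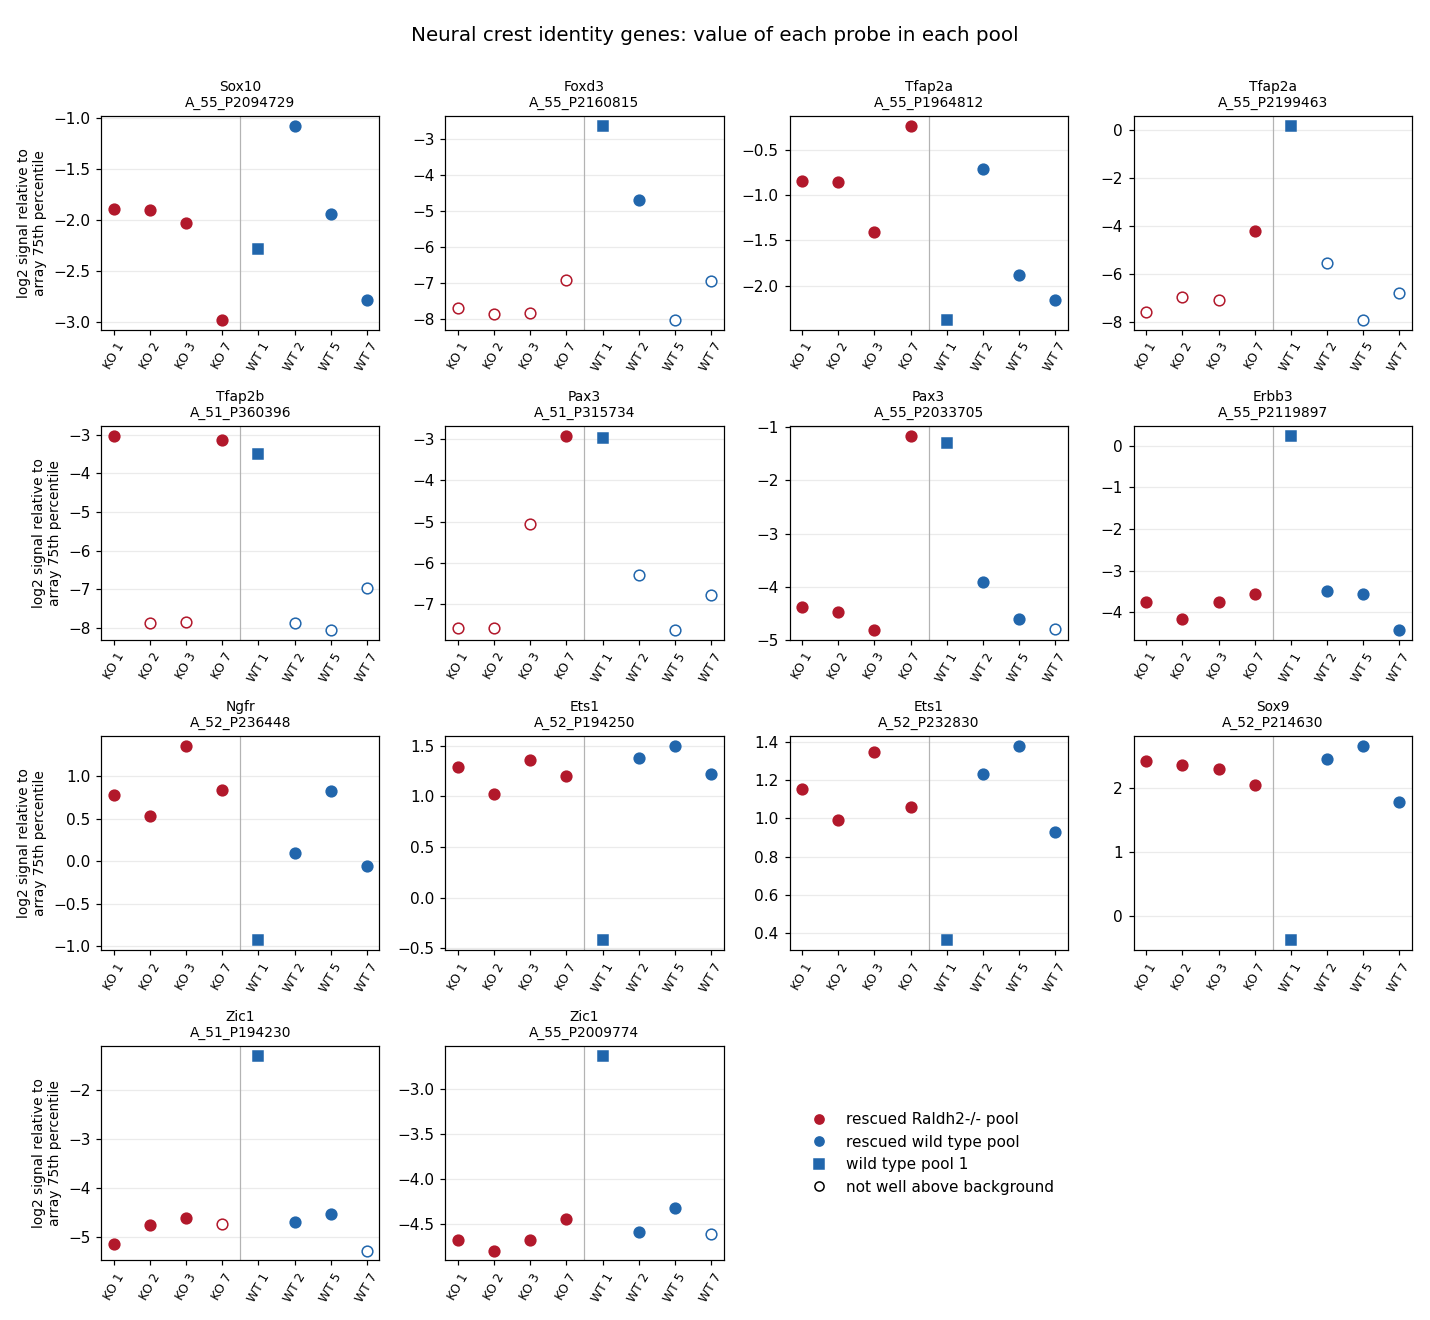
Each panel shows 1 probe of a neural crest identity gene, with the 8 pools on the x axis (KO, rescued Raldh2-/-; WT, rescued wild type) and the log2 signal over the 75th percentile of its array on the y axis, whose range differs between panels. Open symbols are values not well above background and the square is wild type pool 1, which for Erbb3 sits at 0.24 against -4.42 to -3.48 in the other 7 pools.

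Sox10 is the factor that keeps crest cells multipotent and later drives the glial lineage. It stood at -1.89, -1.90, -2.03 and -2.98 in knockout pools 1, 2, 3 and 7. It stood at -2.29, -1.07, -1.94 and -2.79 in wild type pools 1, 2, 5 and 7. Knockout pools 1 to 3 lay close together in the middle of the wild type range, knockout pool 7 was the lowest of all 8 pools and wild type pool 2 the highest. The difference was -0.18 ± 0.43 on 8 arrays (95% interval -1.16 to 0.80; limma adjusted p = 0.83). On 7 arrays it was -0.27 ± 0.44 (-1.30 to 0.76; limma adjusted p = 0.838), and with knockout pool 7 also left out it was -0.006 ± 0.40. These intervals include differences of up to about 1 log2 unit either way, and the sign of the 8-array difference turned to positive under quantile (0.86), median (0.36) and normexp scaling (0.23).

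Foxd3 holds crest precursors in their early state and is normally lost as cells differentiate. Its probe (A_55_P2160815) was not well above background in any of the 4 knockout pools, at -7.70, -7.87, -7.83 and -6.91. In the wild type pools it stood at -2.63, -4.70, -8.03 and -6.95, well above background in pools 1 and 2 only. Wild type pool 2 was thus the one pool, beside the array that stood apart, with a Foxd3 signal, and it also had the highest Sox10 value. No fold is given, and Foxd3 was not tested. The mean of the wild type pools did not exceed the mean of the lowest signals called on the 4 knockout arrays.

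Pax3, a paired-box factor of the plate border and of muscle precursors, was low in all pools but 2. Its probe A_55_P2033705 stood at -4.38, -4.48, -4.82 and -1.16 in the knockout pools and at -1.29, -3.91, -4.62 and -4.79 in the wild type pools, the last not well above background. Knockout pool 7 and the array of wild type pool 1 were high, and the other 6 pools lay within 0.91 log2 units of each other. The second probe (A_51_P315734) was well above background in those same 2 pools only, at -2.92 and -2.97. The difference of the first probe was -0.057 ± 1.0 on 8 arrays and 0.73 ± 0.87 on 7, where 1 pool set it: without knockout pool 7 as well it was -0.12 ± 0.25 (limma adjusted p = 0.883). The sign of the 8-array difference followed the setting.

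Lbx1, Myod1, Myog and Tcf15, genes of muscle precursors and somites, were high in the same knockout pool, while Meox1 and Meox2 were not. Lbx1, which marks muscle precursors that migrate to limb and tongue, stood at -3.89, -3.51 and -3.86 in knockout pools 1 to 3 and at -0.20 in knockout pool 7. It stood at -2.31, -3.62 and -3.90 in wild type pools 2, 5 and 7. Myog, a driver of muscle differentiation, was well above background in knockout pool 7 alone of these 7 pools, at -2.22 against -6.84 to -5.74. Myod1, which commits cells to the muscle lineage, stood at -2.88 in knockout pool 7 and at -6.81 to -5.29 in the other 6. Of the list of 8 dermomyotome and muscle markers, 6 were well above background in knockout pool 7, 4, 5 and 3 in knockout pools 1, 2 and 3, and 3 to 4 in the wild type pools other than pool 1. Meox1, made by somites and outflow tract tissue, was lowest of the knockout pools in pool 7, at 2.13 against 2.33 to 2.88. Meox2 stood at -3.57 there, lower than in the pools numbered 2 of either group (-3.52 in knockout, -1.95 in wild type). Pax7 and Myf5 were not well above background in any of the 7. The summed linear level of the list was 5.59 to 7.87 in knockout pools and 4.03 to 8.06 in wild type pools other than pool 1, most of it from Meox1. The part of these cells in the Pax3 value was not tested.

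**Figure D2:**
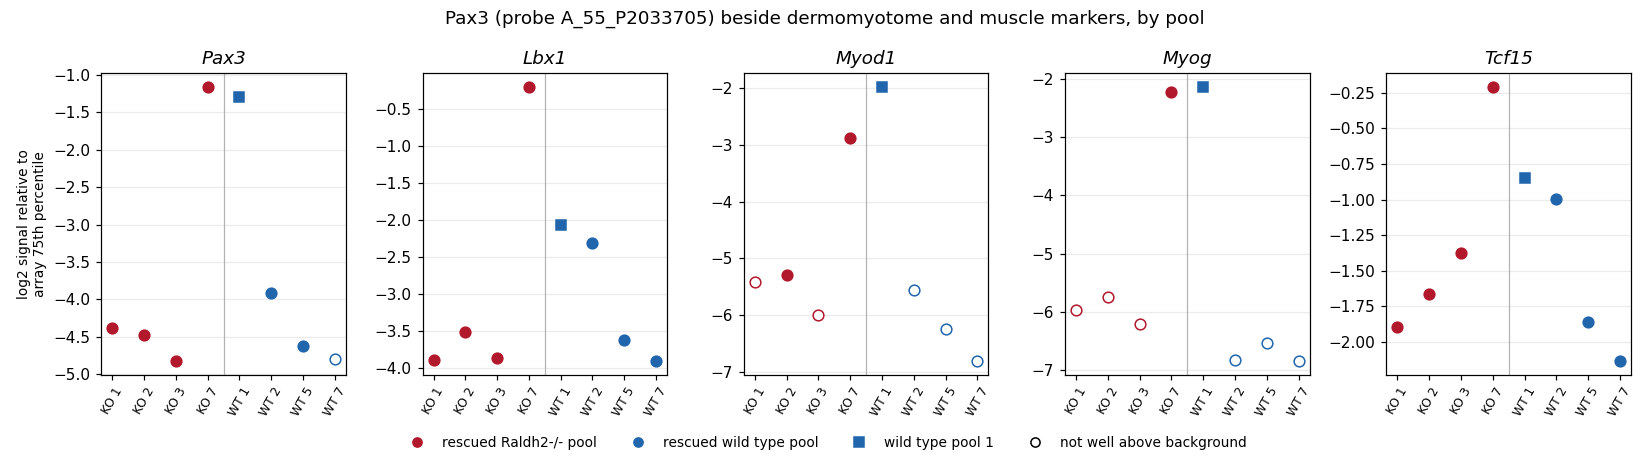
Pax3 beside 4 dermomyotome and muscle markers, 1 panel per gene, with pools on the x axis and the log2 signal over the 75th percentile of its array on the y axis; open symbols are values not well above background. Knockout pool 7 is high in every panel, at -1.16 for Pax3 and -0.20 for Lbx1. The 4 markers were picked from a list of 8 after their values were seen. Not shown are Meox1 and Meox2, which were not high in that pool, and Pax7 and Myf5, not well above background there.

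Tfap2a, an AP-2 factor needed in crest and in surface ectoderm, had one of the 2 largest differences in favour of the knockout pools among the members. Its probe A_55_P1964812 stood at -0.84, -0.85, -1.40 and -0.23 in the knockout pools. It stood at -2.38, -0.71, -1.88 and -2.16 in the wild type pools. Of the wild type pools, 3 lay below every knockout pool, and wild type pool 2 lay among the knockout pools. The difference was 0.95 ± 0.43 on 8 arrays (-0.023 to 1.92; unadjusted p = 0.054, limma adjusted p = 0.735). It was 0.75 ± 0.40 on 7 arrays (limma adjusted p = 0.535) and 0.55 ± 0.39 without knockout pool 7 as well. The probe closer to the gene's start (A_55_P2199463) was well above background in knockout pool 7 and wild type pool 1 only, at -4.22 and 0.19, and was not tested.

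Across the 7 pools the Tfap2a level divided the pools into high and low as several epithelial genes did. Tfap2a was higher in knockout pools 1, 2 and 7 and wild type pool 2 than in knockout pool 3 and wild type pools 5 and 7. Of 10 markers of surface or pharyngeal epithelium, 6 had the same division, namely Epcam, Cdh1, Cldn6, Foxa1, Foxa2 and Esrp1. Epcam, an epithelial adhesion molecule, stood at -3.20, -3.54 and -1.53 in knockout pools 1, 2 and 7 and at -2.34 in wild type pool 2. In knockout pool 3 and wild type pools 5 and 7 it stood at -5.71, -5.17 and -6.64. Foxa2, an endoderm factor, stood at -0.97, -1.58, -0.49 and -0.42 in the first 4 pools and at -4.18, -4.60 and -4.25 in the other 3. Krt8, Krt18, Krt19 and Trp63 did not divide the pools in this way. Krt8 and Krt19 were lower in all 4 knockout pools than in wild type pools 2, 5 and 7, where 11.4% of all genes had no overlap. They differed by -0.69 and -1.87 in limma on 7 arrays (adjusted p = 0.348 and 0.218; for Krt19 0.047 with median scaling). On 8 arrays, where the groups overlapped, Krt8 differed by -0.25 ± 0.44 and Krt19 by -1.50 ± 0.43. The summed linear level of the 10 markers was 42.9 to 64.7 in the knockout pools and 57.3 to 91.8 in those wild type pools, most of it from keratins. Tfap2c, an AP-2 relative of the epithelium and trophoblast, stood at -2.67, -2.95, -2.06 and -1.08 in the first 4 pools and at -4.10, -5.92 and -5.52 in the other 3. The division was set by the Tfap2a values themselves, and the share of all genes that have it was not counted. The part of epithelium in the Tfap2a difference was not tested.

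**Figure D3:**
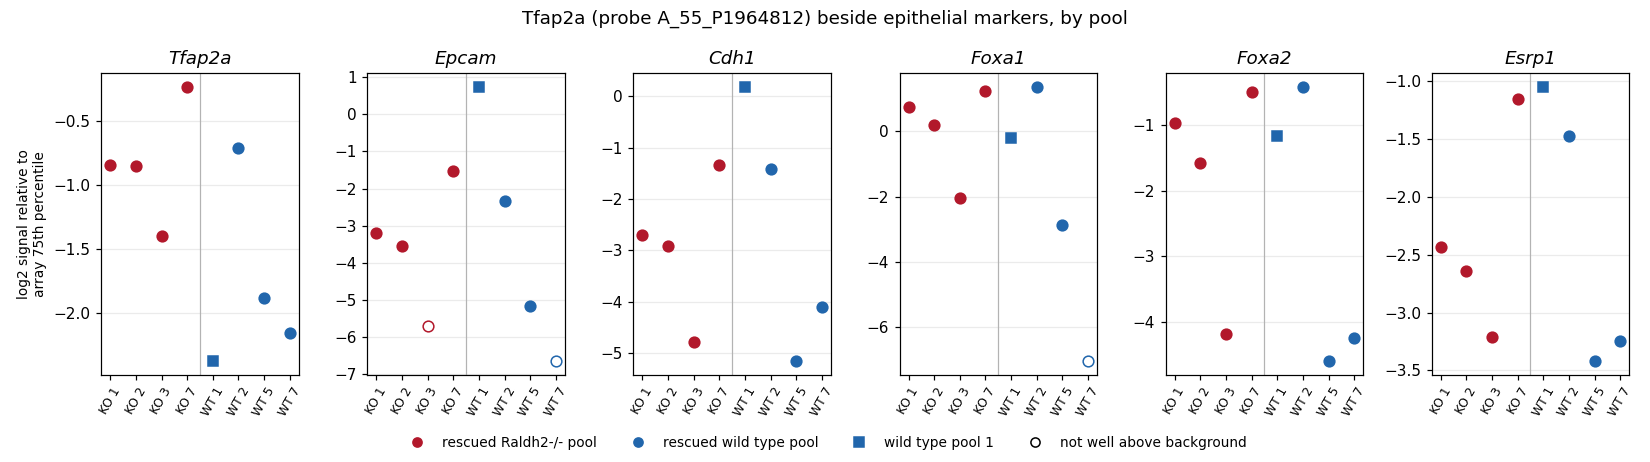
Tfap2a beside 5 epithelial markers, 1 panel per gene, with pools on the x axis and the log2 signal over the 75th percentile of its array on the y axis; open symbols are values not well above background. The markers shown were picked after their values were seen, from those with the division of Tfap2a. Krt8, Krt18, Krt19 and Trp63, which did not have it, are not shown. Leaving aside wild type pool 1, the pools KO 1, KO 2, KO 7 and WT 2 lie above KO 3, WT 5 and WT 7 in every panel, as for Foxa2 with -1.58 to -0.42 against -4.60 to -4.18.

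Tfap2b, the AP-2 factor of crest, sympathetic neurons and the ductus arteriosus, was well above background in knockout pools 1 and 7 and in wild type pool 1. Its probe (A_51_P360396, chr1:19228555-19228614) stood at -3.02, -7.88, -7.85 and -3.14 in the knockout pools and at -3.49, -7.88, -8.07 and -6.98 in the wild type pools. The knockout pools were thus divided evenly between signal and no signal, and Tfap2b was not tested.

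Zic1, a zinc finger factor of the plate border, was dim. Its zinc finger probe stood at -4.68, -4.80, -4.68 and -4.45 in the knockout pools and at -2.64, -4.59, -4.32 and -4.61 in the wild type pools, the last not well above background. Leaving aside wild type pool 1, all 7 values lay within 0.48 log2 units. The difference was -0.61 ± 0.45 on 8 arrays and -0.14 ± 0.13 on 7 (-0.44 to 0.15; limma adjusted p = 0.694). With knockout pool 7 also left out, the 3 knockout values lay below the 3 wild type values, at -0.21 ± 0.12 (limma adjusted p = 0.588), in a setting where 16.7% of all genes had groups without overlap and 0.00429% passed the adjusted threshold. The second probe (A_51_P194230) gave -0.86 ± 0.78 on 8 arrays and 0.021 ± 0.21 on 7, both from the fit of single probes. The array of wild type pool 1 thus set most of the difference seen on 8 arrays.

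Ets1, which crest cells share with endothelium, was bright and even. Its probe A_52_P194250 (chr9:32564860-32564919) stood at 1.29, 1.03, 1.36 and 1.21 in the knockout pools and at -0.42, 1.38, 1.497 and 1.22 in the wild type pools. Apart from wild type pool 1 all values overlapped within 0.47 log2 units. The difference was 0.30 ± 0.44 on 8 arrays and -0.15 ± 0.12 on 7 (-0.43 to 0.14; limma adjusted p = 0.675). The ETS domain probe gave 0.16 ± 0.29 on 8 arrays and -0.042 ± 0.15 on 7, from the fit of single probes.

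Sox9, which drives crest emigration and later cushion and cartilage matrix, was bright in every pool. Its probe (A_52_P214630, chr11:112648809-112648868), with 10 spots on each array, stood at 2.41, 2.36, 2.30 and 2.04 in the knockout pools and at -0.38, 2.45, 2.65 and 1.78 in the wild type pools. The knockout pools lay inside the range of wild type pools 2, 5 and 7. The difference was 0.65 ± 0.62 on 8 arrays and -0.021 ± 0.22 on 7 (-0.53 to 0.49; limma adjusted p = 0.979). Its matrix targets gave a like picture: Col2a1, the main collagen of cartilage, differed by 0.35 ± 0.45 on 8 arrays and by -0.098 ± 0.18 on 7. Of a list of 14 cartilage and cushion genes, most of them matrix genes, 13 were tested and 0 passed. The median difference was -0.091 on 8 arrays and -0.035 on 7. The list also holds Sox transcription factors that are counted again among the other crest factors below. Matn4, a matrix adaptor protein, was the 1 of 13 without overlap, against 5.49% of all genes on 8 arrays and 11.4% on 7. It was lower in knockout pools, at -1.52 ± 0.81 on 8 arrays and -0.63 ± 0.27 on 7.

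Erbb3 is the neuregulin receptor of migrating crest and Schwann cell precursors. It stood at -3.75, -4.16, -3.76 and -3.57 in the knockout pools and at 0.24, -3.48, -3.57 and -4.42 in the wild type pools. The value of wild type pool 1 stood 3.72 log2 units above the highest of the other 7, which overlapped between groups. The difference was -0.999 ± 0.89 on 8 arrays and 0.017 ± 0.26 on 7 (-0.58 to 0.62; limma adjusted p = 0.985). Its partner Erbb2 differed by 0.063 ± 0.38 and by -0.28 ± 0.14 on 7 arrays, and their ligand Nrg1 by 0.22 ± 0.40 and -0.042 ± 0.31. None of these passed the threshold in limma.

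Ngfr, the low-affinity neurotrophin receptor by which crest cells are often sorted, had the smallest unadjusted p of the members. It was measured by 10 spots on each array and stood at 0.78, 0.53, 1.36 and 0.83 in the knockout pools. It stood at -0.93, 0.094, 0.82 and -0.063 in the wild type pools. All knockout pools lay above 3 of the wild type pools, and wild type pool 5 lay among them. The difference was 0.90 ± 0.40 on 8 arrays (-0.009 to 1.80; unadjusted p = 0.052, limma adjusted p = 0.735). On 7 arrays it was 0.59 ± 0.27 (-0.038 to 1.22; unadjusted p = 0.062, limma adjusted p = 0.483), and without knockout pool 7 as well it was 0.61 ± 0.30. Its sign, like that of Tfap2a, stayed positive in every scaling, filter and left-out pool tried.

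**Figure D4:**
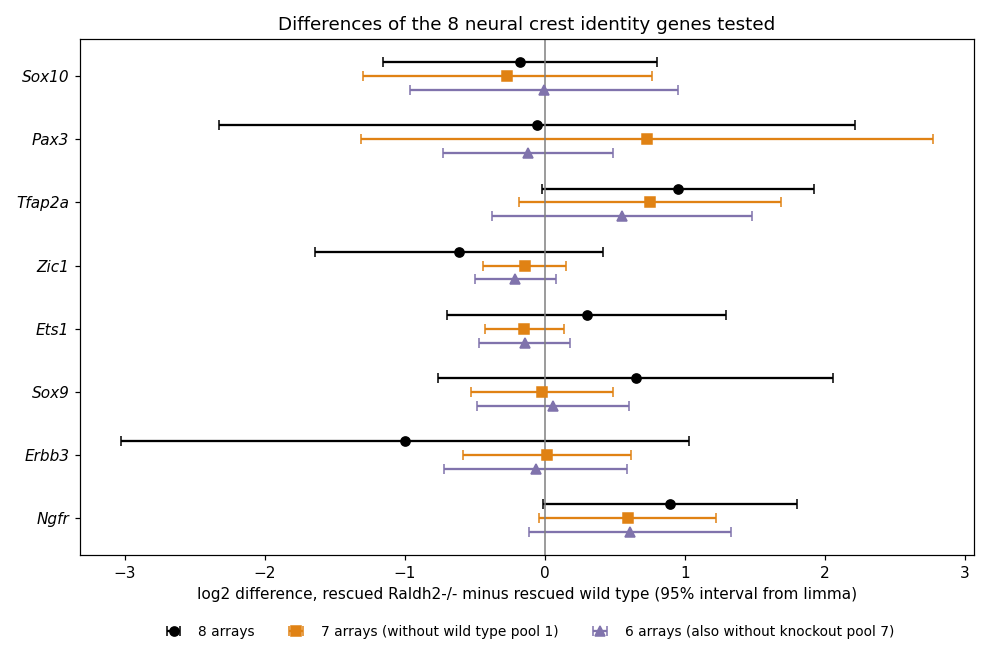
Knockout minus wild type differences of the 8 members tested, on the log2 scale on the x axis, with 95% intervals from limma, for 8 arrays, for 7 without wild type pool 1 and for 6 without knockout pool 7 as well. All intervals include 0, and those of Tfap2a and Ngfr on 8 arrays begin at -0.023 and -0.009.

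Neuronal genes are given beside Ngfr because nerves carry that receptor. Of 16 autonomic and sensory neuron genes, 13 were tested on 7 arrays, 0 passed the threshold and 11 were positive (59.3% of all genes), with a median of 0.36. With each array's median in place of its 75th percentile, 9 of the 13 were positive, against 26.1% of all genes, and the list's median was 0.15. On 8 arrays 8 of 14 were positive (56.9% of all genes), with a median of 0.29. Stmn2, a microtubule regulator of growing axons, stood at 1.09, 0.78, 0.85 and 0.82 in the knockout pools and at -1.19, 0.57, 0.58 and -0.24 in the wild type pools. The groups did not overlap, except under median scaling, with a difference of 0.96 ± 0.42 on 8 arrays and 0.58 ± 0.22 on 7 (limma adjusted p = 0.433). Elavl4, a neuronal RNA-binding protein, also had groups without overlap on 7 arrays, at 0.32 ± 0.12, with the same exception. On 8 arrays its value in wild type pool 1 was the highest of all and the difference was 0.17 ± 0.27. In this list 1 of 14 genes was without overlap on 8 arrays (5.49% of all genes) and 2 of 13 on 7 (11.4%). The summed level of the list was 28.7 to 38.0 in knockout pools and 19.9 to 28.5 in wild type pools other than pool 1, much of it from Hand2 and Gata3, which outflow tract mesenchyme also makes. Of the sensory neuron factors in the list, Neurog2 and Neurod1 were not well above background in any of those 7 pools, Neurog1 was in 4 and Pou4f1 in 6. The part of neurons in the Ngfr difference was not tested.

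Glia are a lineage that keeps Sox10. Of 14 Schwann cell precursor and glial genes, 12 were tested and 0 passed the threshold, with 4 positive on 8 arrays (56.9% of all genes) and 8 on 7 arrays (59.3%). These counts followed the scaling, as did the share of all genes. With quantile scaling 8 were positive on 8 arrays (67.6% of all genes) and 4 on 7 (49.5%). Fabp7, an early glial lipid carrier, differed by -0.50 ± 0.54 on 8 arrays and by 0.061 ± 0.20 on 7. Gfap, a later glial marker, was well above background in 2 of the 7 pools.

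Of 20 other crest transcription factors, 14 were tested and 0 passed. On 8 arrays 13 were positive (56.9% of all genes), with a median of 0.41, where that of all genes was 0.13. On 7 arrays 11 were (59.3% of all genes), with a median of 0.14 against 0.053. Under median scaling of the 7, 5 were, against 26.1% of all genes. Above the median of all genes on 7 arrays lay 10 of the 14. Median scaling cannot change this count, since it shifts all genes of an array alike. With quantile scaling of the 7 it was 9 of the 14. Snai2, a driver of crest emigration, differed by 0.29 ± 0.42 on 8 arrays and -0.11 ± 0.17 on 7. Twist1, a mesenchyme factor, differed by 0.22 ± 0.38 and -0.12 ± 0.17, and Msx2, a target of BMP signalling, by 0.34 ± 0.34 and 0.093 ± 0.20. Zic2, a relative of Zic1, was too dim to be tested. Without overlap was 1 of the 14 in either setting, against 5.49% of all genes on 8 arrays and 11.4% on 7. This was Id2, an inhibitor of bHLH factors that crest expresses. It stood at 4.73, 4.61, 4.63 and 4.70 in the knockout pools against 2.22, 4.27, 4.55 and 4.38 in the wild type pools. The difference was 0.81 ± 0.51 on 8 arrays and 0.27 ± 0.10 on 7 (limma adjusted p = 0.444), with overlap under median scaling.

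Of 24 receptors, ligands and adhesion genes of the crest, 21 were tested on 8 arrays and 20 on 7, and 0 passed. On 8 arrays 15 were positive (56.9% of all genes), with a median of 0.195. On 7 arrays 9 were (59.3% of all genes), with a median of -0.073. Without overlap was 1 of the 21 on 8 arrays (5.49% of all genes). On 7 arrays 1 of the 20 was higher and 1 lower without overlap (11.4% of all genes). Sema3c, the guidance cue that the outflow tract offers to crest cells, was higher in every knockout pool, at 3.90, 3.64, 3.94 and 3.41 against 1.43, 2.97, 3.32 and 2.37, by 1.20 ± 0.42 on 8 arrays and 0.84 ± 0.24 on 7 (limma adjusted p = 0.366), while under median scaling the groups overlapped. Erbb4, a neuregulin receptor of the heart muscle, was lower in every knockout pool than in wild type pools 2, 5 and 7, with a difference of -0.43 ± 0.21 on 7 arrays (limma adjusted p = 0.503). On 8 arrays its groups overlapped and the difference was -0.12 ± 0.38. Ednrb, the endothelin receptor of crest, differed by -0.25 ± 0.31 on 8 arrays and by -0.21 ± 0.26 on 7. Kit, the receptor of melanoblasts, differed by -0.17 ± 0.34 and -0.10 ± 0.31. Ret, the GDNF receptor of enteric and autonomic crest, was too dim to be tested.

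Of 8 melanocyte genes 5 were tested and 0 passed, with 1 positive on 8 arrays (56.9% of all genes) and 3 on 7 (59.3%). Mlana, a melanosome protein, was the 1 of 5 without overlap on 7 arrays, against 11.4% of all genes. It was higher in every knockout pool than in wild type pools 2, 5 and 7, by 0.51 ± 0.14 on 7 arrays (limma adjusted p = 0.366), but differed by -0.36 ± 0.76 on 8. Mitf, the melanocyte master factor that heart tissue also makes, differed by 0.18 ± 0.43 on 8 arrays and -0.24 ± 0.18 on 7. The lists were read against the tissue's own markers. All 13 cardiomyocyte markers and all 10 endothelial markers were well above background in every pool, and 7 to 8 of 8 smooth muscle markers were. None passed the threshold, but several lists leaned one way. The share of all genes that were positive was 56.9% on 8 arrays and 59.3% on 7, with medians of 0.13 and 0.053. On 7 arrays 0 of 13 cardiomyocyte markers were positive, with a median of -0.18, and on 8 arrays 12 of 13 were, with a median of 0.34. All 8 erythroid markers were positive in both settings, with medians of 1.02 on 8 arrays and 0.54 on 7. Of 8 macrophage markers 3 were positive on 8 arrays and 7 on 7. The part of these cell types in the values of the crest lists was not tested. Of 10 neural tube markers, 5 to 8 were well above background in the 7 pools, with a summed level of 2.21 to 3.38 in knockout pools and 1.96 to 2.55 in wild type pools other than pool 1.

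Across the 7 arrays some pairs of members varied together and others did not. Sox10 and Sox9 had a Pearson r of 0.76, Sox10 and Erbb3 0.40, Sox10 and Tfap2a 0.12, and Sox10 and Pax3 -0.44. Tfap2a and Pax3 had 0.72, with knockout pool 7 highest in both. Of 14630 named genes well above background on all 7 arrays, those whose level was most like that of Sox10 were Zbtb34 with r = 0.98, Gm10061 with 0.96, Zfp707 with 0.95, Slc45a3 with 0.95 and Hpse with 0.93. None is a gene of the crest lists, and with 7 points per gene these are descriptions of these pools.

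RefSeq promoter windows of GRCm38.p6, from 250 bases before to 50 after the start, were at hand for 5 of the 10 members (Foxd3, Tfap2a, Tfap2b, Ngfr and Zic1), in 6 windows. The nuclear receptor core AGGTCA, searched on both strands, was in 0 of the 6 windows and in 16.3% of 32851 windows. A direct repeat of 2 exact cores with 5 bases between them, the arrangement known for retinoic acid receptors, was in 0 of the 6 and in 0.00913% of all, and so was one with 2 bases between them. The AP-2 motif, GCC and GGC with 3 bases between them, was in 1 of the 6, that of Zic1, and in 16.6% of all. These counts describe letters in short windows only.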

How the data were processed

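The deposited scanner files hold 1 array each of RNA labelled with Cy3 (50 ng input, integrity number above 8.0, per the labels' protocols), from Agilent Feature Extraction, per the file headers. The deposited values are intensity on a linear scale, the processed signal, with background subtracted and spatial trend removed within the array per the file headers and no scaling between arrays. The authors' deposited intensity matrix equals it after rounding, within 0.497%.

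Spots flagged as non-uniform were left out and the spots of a probe averaged. Values are log2 of the signal minus log2 of the array's 75th percentile. Only probes well above background on 3 or more arrays of the same group were tested, and each gene was represented by its brightest such probe. Groups were compared by two-sided moderated tests (limma 3.58.1, R 4.3.3), Benjamini-Hochberg adjusted over all genes, threshold 0.05; errors after ± are standard errors of the difference. The number of arrays limits the precision. The fit was tested on simulated data. All arrays were on 1 slide, and its column was tried as a block.

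The members and gene lists were chosen with earlier results of these data known. Named genes were the members, Aldh1a2, 12 genes of the lists (others that the rule names are not reported here), the 5 genes most like Sox10, and any list gene past the threshold. List genes outside that rule (Id2, Sema3c, Erbb4, Stmn2, Elavl4, Matn4, Mlana, Gfap, Tfap2c, Neurog1, Neurog2, Neurod1, Pou4f1, Hand2, Gata3) and the markers beside Pax3 and Tfap2a were named after their values were seen. Same-numbered pools were not paired by any label. Alternatives were quantile, median and normexp (offset 50) scaling, the matrix, filters, probe summaries, variance models, blocks and leaving out pools; 3 settings were added after seeing the data.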

Additional observations from a re-analysis of the deposited data

Results flagged for a closer look

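In 7 of 50 groups of 4 pools checked, 1 pool lay apart from the other 3 by Dixon's criterion, where chance would give 2.5. Knockout pool 7 lay apart for 3 genes. Its Sox10 was -2.98 against -2.03 to -1.89 in the other knockout pools, its Pax3 was -1.16 against -4.82 to -4.38, and its Aldh1a2 was 0.059 against 1.87 to 2.02. The array of wild type pool 1 lay apart for 4 genes. Its Ets1 was -0.42 against 1.22 to 1.497 in the other wild type pools, its Zic1 was -2.64 against -4.61 to -4.32, its Erbb2 was 0.051 against 1.34 to 1.58, and its Fabp7 was -1.63 against -3.97 to -3.84. The causes were not tested.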

How the results depend on the processing

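With limma no member passed the threshold in any of the 23 alternatives, and over all genes 0 passed except 8 with array weights, 1 with wild type pool 1 and knockout pool 7 left out (6 arrays) and 22 on 7 arrays scaled by their median. Tfap2a and Ngfr (positive) and Aldh1a2 (negative) kept their sign throughout. Leaving out 1 pool gave 0 to 1 members without overlap and a member median of -0.14 to 0.28; 1 member was without overlap on 6 arrays and on 7 arrays scaled by quantile or median. The member median was 0.75 with quantile scaling. Median scaling moved the median of all genes from 0.13 to 0.67 on 8 arrays and to -0.15 on 7, with 82.2% and 26.1% of genes positive against 56.9% and 59.3%. The pool number as a replicate block, which no label supports as a pairing (correlations of deviations -0.15, 0.32 and -0.41), gave 0 genes past the threshold, 234 against 434 with an unadjusted p below 0.05, and a member median of 0.22.

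The sign of a log2 difference turned as follows; the cause was not tested beyond the pools or scaling named. Quantile scaling gave Sox10 0.86, Pax3 0.68, Ets1 -0.016, Kit 0.079, Fabp7 0.25, Mitf -0.27 and Col2a1 -0.11. Median scaling gave Sox10 0.36, Pax3 0.48, Ednrb 0.29, Kit 0.38 and Fabp7 0.036. Normexp gave Sox10 0.23, Pax3 0.43, Ets1 -0.026, Zic1 0.086, Kit 0.050, Fabp7 0.092, Mitf -0.28 and Col2a1 -0.13. Array weights gave Pax3 0.17, Ets1 -0.16, Snai2 -0.045, Twist1 -0.099, Msx2 -0.027, Erbb2 -0.29, Fabp7 0.21, Mitf -0.13 and Col2a1 -0.059. The 6 arrays gave Ets1 -0.14, Snai2 -0.038, Twist1 -0.10, Msx2 -0.043, Erbb2 -0.21, Fabp7 0.12, Mitf -0.17 and Col2a1 -0.14. On 7 arrays quantile scaling gave Pax3 0.64, Ets1 -0.17, Sox9 -0.051, Snai2 -0.15, Twist1 -0.14, Nrg1 -0.060, Erbb2 -0.31, Mitf -0.26 and Col2a1 -0.036. On 7 arrays median scaling gave Pax3 0.53, Ets1 -0.35, Sox9 -0.23, Snai2 -0.32, Twist1 -0.32, Msx2 -0.11, Nrg1 -0.25, Erbb2 -0.49, Mitf -0.44 and Col2a1 -0.30. Leaving out 1 pool gave Pax3 -0.91 to 0.73, Erbb2 -0.28 to 0.23, Sox10 -0.43 to 0.14, Erbb3 -1.54 to 0.017, Ets1 -0.15 to 0.36, Sox9 -0.021 to 0.99, Snai2 -0.11 to 0.50, Twist1 -0.12 to 0.43, Nrg1 -0.042 to 0.44, Fabp7 -0.72 to 0.061, Mitf -0.23 to 0.45, Col2a1 -0.098 to 0.55 and Kit -0.41 to 0.0085. Foxd3, Tfap2b and the second probes of Tfap2a and Pax3 were near background, which limits them to presence or absence of a signal.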
